A study of Mus musculus with 12 samples.

Results

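The whole difference between NIAAA feeding and control feeding in mouse liver was measured over both genotypes of a study of the acyltransferase gene Lpcat3. The comparison used 11 of the 12 samples described, 6 on NIAAA feeding and 5 on control feeding. The remaining sample, LKO-NC replicate 3, was not analysed here. FLOX-NC (n = 3) and FLOX-ALD (n = 3) were labelled LPCAT3flox/flox and given control or NIAAA feeding, and LKO-NC (n = 2) and LKO-ALD (n = 3) were LPCAT3flox/flox-cre mice on the same feedings. All were labelled as male C57BL/6 mice aged 8 to 10 weeks, and all carried the floxed allele. The promoter that drives cre is not named in the labels, so the cells that lost Lpcat3 are not stated. NIAAA feeding is a mouse model of alcoholic liver injury in which ethanol is given in the diet, and no sample separates the ethanol from the rest of the model. Whether replicates came from separate animals is not stated, and p-values here measure only the spread between these libraries, part of which may be technical.

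As background, the liver oxidises ethanol to acetaldehyde and then to acetate, in reactions that consume NAD+ and produce NADH. Ethanol feeding is known to alter hepatic glucose production, fatty acid handling, xenobiotic metabolism and innate immunity. Nuclear receptors govern much of this programme: PPARA for fatty acid oxidation, CAR and PXR for xenobiotic enzymes, and LXR and FXR for sterol and bile acid genes.

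Libraries held 39.1 to 73.6 estimated counts in units of 1e6, with means of 50.5 ± 7.43 on control feeding (SD, n = 5) and 57.3 ± 13.5 on NIAAA feeding (SD, n = 6). Mitochondrially encoded genes took 12.1% to 26.4% of the counts, and the share was above 20% in LKO-NC replicate 1 and in FLOX-ALD replicates 2 and 3. Neither property differed detectably between feedings (two-sided exact permutation test within genotype, 200 permutations, p = 0.375 and p = 0.735). FLOX-ALD replicate 1, labelled male, had Xist at 772 CPM and no counts of 4 Y-linked genes, whereas every other library had Xist at 2.95 CPM or less and a Y-linked sum of at least 135 CPM. Results are therefore also given without that library. The tissue label matched the hepatocyte markers, whose summed level was 109316 to 165028 CPM on control feeding and 97197 to 202306 CPM on NIAAA feeding.

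Feeding was fitted as 1 term beside genotype, and a gene was called when its edgeR adjusted p was under 0.05 over all 19014 genes tested. Levels are TMM-scaled counts per 1e6 (CPM), and differences are on the log2 scale as NIAAA minus control, with their standard error (SE). Feeding changed 633 genes, or 3.33% of those tested, of which 299 (1.57%) were higher and 334 (1.76%) were lower on NIAAA feeding. The 6 NIAAA and 5 control libraries did not overlap for 464 of the called genes, 212 of them higher and 252 lower. Among all genes tested, 2.25% were higher and 2.6% lower without overlap, 4.85% in all. The median difference was 1.13 among the higher genes and −1.19 among the lower genes, and 36 and 52 genes passed a difference of 2. Over all genes tested the median difference was 0.03, and 52.4% of differences were positive. Without FLOX-ALD replicate 1 there were 473 calls, 391 of them shared with the 633. DESeq2 called 977 genes higher (5.14%) and 946 lower (4.98%). A fit of the 8 libraries at or below 20% mitochondrial counts called 330 higher (1.64%) and 294 lower (1.46%), with FLOX-ALD replicate 1 and LKO-NC replicate 2 each alone in its group. Counts of lists in these fits are given beside the edgeR counts below, or at the end for lists of few calls.

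**Figure D1:**
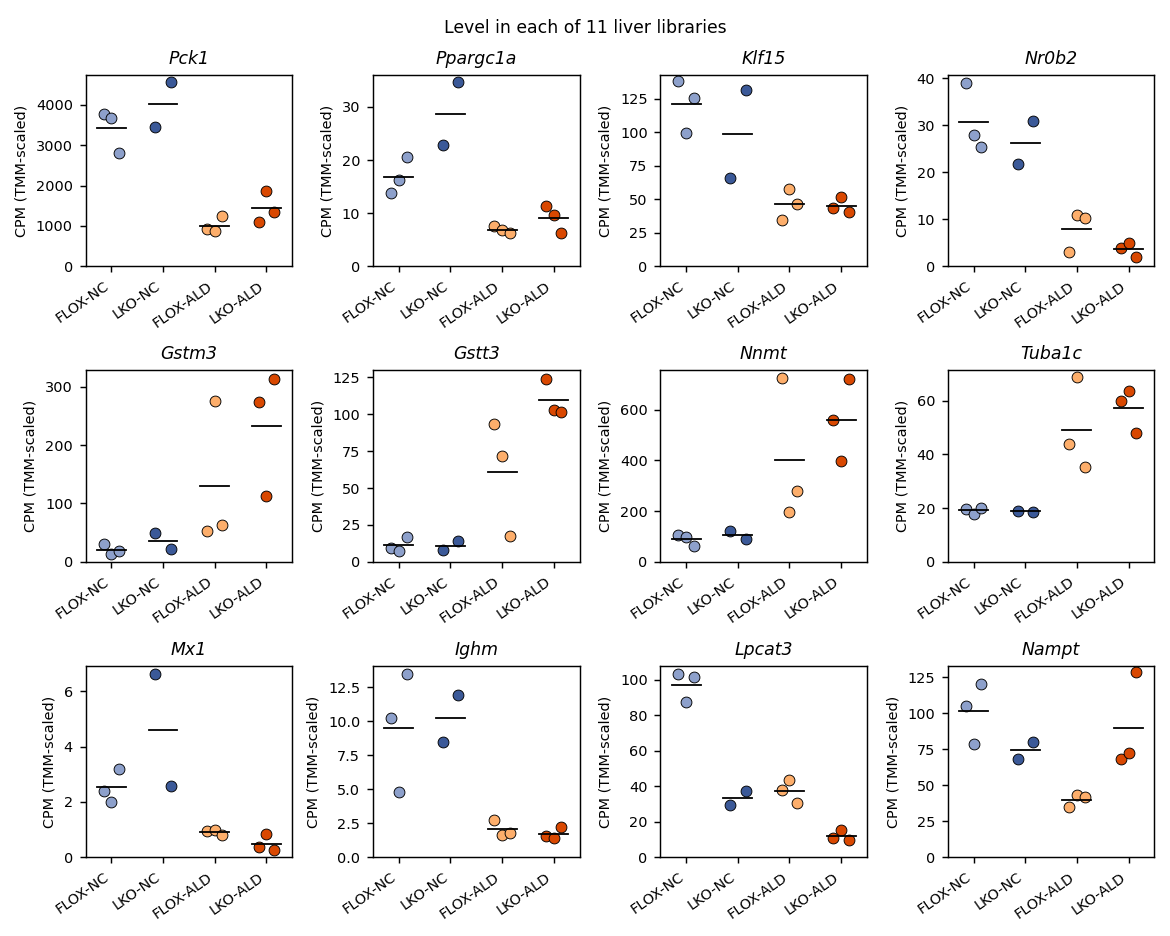
Level of 12 genes in each of the 11 libraries (y axis, TMM-scaled CPM from 0) by group (x axis). Points are libraries and bars are group means. Pck1, Ppargc1a, Klf15, Nr0b2, Mx1 and Ighm lie lower in every NIAAA library than in every control library, and Gstm3, Gstt3, Nnmt and Tuba1c lie higher. Lpcat3 falls within each genotype, and Nampt is low in FLOX-ALD and not in LKO-ALD.

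Of 22 tested genes of gluconeogenesis and glucose handling, 4 fell and 0 rose (18.2%, against 1.76% of all genes called lower), and the list's median difference was −0.28. Pck1 (ENSMUSG00000027513, chr2:173153048-173159273, + strand, mm10) encodes the cytosolic phosphoenolpyruvate carboxykinase that commits carbon to gluconeogenesis. Its level was 3765, 3682 and 2797 CPM (FLOX-NC) and 3454 and 4562 CPM (LKO-NC) on control feeding, and 927, 863 and 1235 CPM (FLOX-ALD) and 1102, 1865 and 1354 CPM (LKO-ALD) on NIAAA feeding. Every NIAAA library lay below every control library, and the smallest gap was between 1865 CPM in LKO-ALD and 2797 CPM in FLOX-NC. Pck1 fell by 1.63 (SE 0.224, edgeR adjusted p = 0.0037), from a mean of 3652 ± 635 CPM on control feeding (SD, n = 5) to 1224 ± 364 CPM on NIAAA feeding (n = 6). Ppargc1a (ENSMUSG00000029167, chr5:51454250-51567726, - strand, mm10) encodes PGC-1α, the coactivator that raises gluconeogenic and mitochondrial genes in fasting. It measured 13.8, 16.2 and 20.5 CPM (FLOX-NC) and 22.8 and 34.7 CPM (LKO-NC) on control feeding, and 7.55, 6.92 and 6.28 CPM (FLOX-ALD) and 11.3, 9.68 and 6.2 CPM (LKO-ALD) on NIAAA feeding, again without overlap, and fell by 1.46 (SE 0.196, edgeR adjusted p = 0.00335). The calls of Pck1 and Ppargc1a held without any 1 library (edgeR adjusted p up to 0.0206 and 0.0195). The other called members were Sds, serine dehydratase, which feeds serine into gluconeogenesis, and Pfkfb1, the liver enzyme that sets fructose 2,6-bisphosphate, an allosteric regulator of glycolysis and gluconeogenesis. Sds ran from 159 to 271 CPM on control feeding and 72.1 to 164 CPM on NIAAA feeding, overlapping between groups, and fell by 1.04 (SE 0.176, edgeR adjusted p = 0.00943). Sds overlaps Plbd2 on the opposite strand. Pfkfb1 fell by 0.89 (SE 0.177, edgeR adjusted p = 0.0204).

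Some transcription factors with roles in fasting metabolism fell as well. Klf15, a factor that supports amino acid catabolism and gluconeogenesis, measured 138, 99.5 and 126 CPM (FLOX-NC) and 65.9 and 132 CPM (LKO-NC) on control feeding, and 34.5, 57.3 and 46.6 CPM (FLOX-ALD) and 43.7, 51.6 and 40.2 CPM (LKO-ALD) on NIAAA feeding. The highest NIAAA library, at 57.3 CPM, was below the lowest control library, LKO-NC replicate 1 at 65.9 CPM. Klf15 fell by 1.28 (SE 0.202, edgeR adjusted p = 0.00737), and its call held without any 1 library (edgeR adjusted p up to 0.0408). Foxo3, an insulin-restrained factor that activates autophagy and stress genes, measured 50.3, 37.3 and 40.8 CPM (FLOX-NC) and 29.6 and 39.1 CPM (LKO-NC) on control feeding, and 18.3, 17.4 and 14.7 CPM (FLOX-ALD) and 15, 13 and 17.8 CPM (LKO-ALD) on NIAAA feeding and fell by 1.27 (SE 0.150, edgeR adjusted p = 0.00141) without overlap. Ppara, the fatty acid receptor of the fasted liver, fell by 0.87 (SE 0.212, edgeR adjusted p = 0.0393). Its call was lost on leaving out FLOX-NC replicate 1, 2 or 3, LKO-NC replicate 1 or 2, FLOX-ALD replicate 1 or LKO-ALD replicate 1 (edgeR adjusted p up to 0.108). Klf15 and Ppara were 2 of 21 tested hepatocyte transcription factors, and 0 rose. Bcl6, a repressor regulated by growth hormone, ran from 17.1 to 34.9 CPM on control feeding and 4.68 to 15.5 CPM on NIAAA feeding and fell by 1.22 (SE 0.287, edgeR adjusted p = 0.0359), the only call among 23 genes of insulin, IGF1 and growth hormone signalling. The Bcl6 call was lost on leaving out FLOX-NC replicate 1, 2 or 3, LKO-NC replicate 1, FLOX-ALD replicate 2 or LKO-ALD replicate 1 or 2 (edgeR adjusted p up to 0.103).

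Because cyclic AMP response elements are known to regulate Pck1 and Ppargc1a, the half-site TGACGT was searched on both strands in the 250 bases before the start of each gene in RefSeq (GRCm38.p6). Dusp1, an immediate-early phosphatase described below, is shown as a further lower gene with such sites. Each line gives the promoter 5′ to 3′ on the gene's strand, and capitals mark TGACGT or its reverse complement ACGTCA.
Pck1, chr2:173152823-173153072, + strand: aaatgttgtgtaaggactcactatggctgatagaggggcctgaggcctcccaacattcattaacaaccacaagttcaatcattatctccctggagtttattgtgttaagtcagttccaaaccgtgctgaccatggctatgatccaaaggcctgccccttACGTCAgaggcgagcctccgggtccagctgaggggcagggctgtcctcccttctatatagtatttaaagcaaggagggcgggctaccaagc
Ppargc1a, chr5:51567726-51567975, - strand: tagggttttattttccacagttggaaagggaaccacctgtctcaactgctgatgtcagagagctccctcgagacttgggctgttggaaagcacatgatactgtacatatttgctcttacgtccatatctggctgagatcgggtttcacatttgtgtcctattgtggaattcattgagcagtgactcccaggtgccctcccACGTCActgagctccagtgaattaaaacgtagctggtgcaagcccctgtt
Dusp1, chr17:26508473-26508722, - strand: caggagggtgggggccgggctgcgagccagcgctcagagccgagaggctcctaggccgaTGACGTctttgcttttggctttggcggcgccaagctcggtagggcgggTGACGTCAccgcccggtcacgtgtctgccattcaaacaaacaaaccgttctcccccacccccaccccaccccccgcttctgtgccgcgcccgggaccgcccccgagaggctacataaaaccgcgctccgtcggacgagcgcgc
The half-site began 91 bases before the Pck1 start and 50 bases before the Ppargc1a start. In Dusp1 there were 3 matches, at 191, 143 and 141 bases, and the pair at 143 and 141 overlap as the palindrome TGACGTCA. Of 244 called lower genes with a listed promoter, 28 held the half-site (11.5%), and of 208 called higher genes 36 did (17.3%). Of all 27025 genes with a listed promoter 1971 did (7.29%), but these include genes that were not tested, so the groups are not alike. The full palindrome was in 2.46%, 3.85% and 1.77% of these groups. A match describes the letters only.

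Genes of the periportal zone, where oxygen and nutrients enter the lobule, leaned the same way. Of 21 tested periportal and urea cycle genes 5 fell (23.8%) and 0 rose, with a median of −0.48: Pck1 and Sds, and, each named after its values were seen, Gls2, Cdh1 and Hal. Gls2, liver glutaminase, fell by 0.98 (SE 0.211, edgeR adjusted p = 0.0263), Hal, histidine ammonia-lyase, fell by 0.80 (SE 0.155, edgeR adjusted p = 0.0166), and Cdh1, E-cadherin, fell by 0.93 (SE 0.197, edgeR adjusted p = 0.025). The count ran from 2 (without LKO-NC replicate 2) to 6 (without FLOX-ALD replicate 3, LKO-ALD replicate 2 or LKO-NC replicate 1). It was 8 in DESeq2 and 3 in the 8 libraries. Of 22 pericentral and WNT target genes 1 rose and 1 fell, with a median of 0.55 and 17 positive differences. Rhbg, an ammonia transporter of pericentral hepatocytes, ran from 2.9 to 6.48 CPM on control feeding and 8.05 to 48.9 CPM on NIAAA feeding and rose by 1.96 (SE 0.465, edgeR adjusted p = 0.0434). The Rhbg call was lost on leaving out FLOX-NC replicate 1, 2 or 3, LKO-NC replicate 1 or 2 or LKO-ALD replicate 1 or 3 (edgeR adjusted p up to 0.124). The pericentral count was 7 higher and 1 lower without FLOX-ALD replicate 3, 7 and 1 in DESeq2 and 3 and 1 in the 8 libraries.

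**Figure D2:**
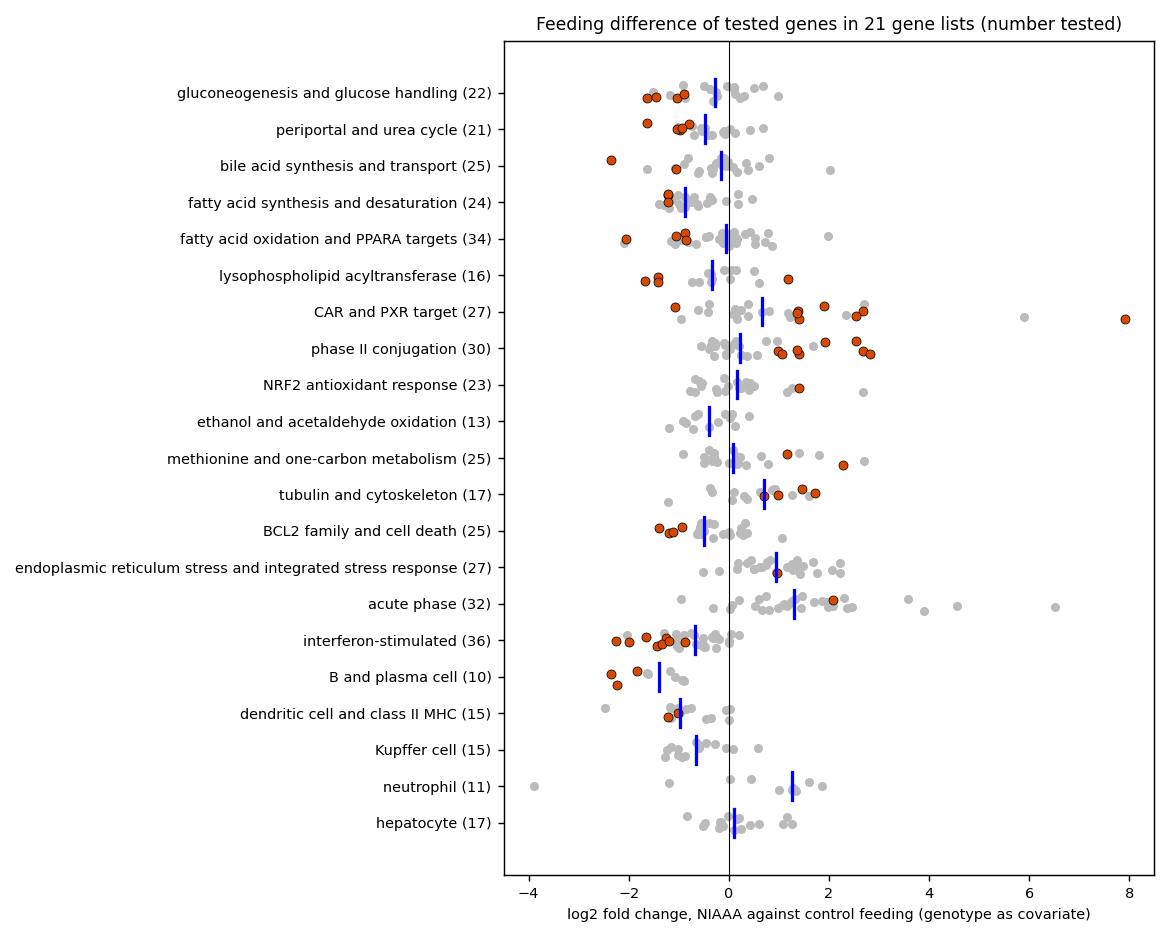
Difference of each tested gene (x axis, log2 scale, NIAAA minus control) in 21 gene lists (y axis, number tested in brackets). Orange points are called, grey points are not, and blue bars are list medians. CAR and PXR targets and phase II genes hold most of the orange points to the right of 0, and interferon-stimulated genes hold 8 to the left.

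In bile acid metabolism, the largest decrease was in Nr0b2, which encodes SHP, the repressor induced by FXR that limits bile acid synthesis. Nr0b2 measured 39, 28 and 25.3 CPM (FLOX-NC) and 21.7 and 31 CPM (LKO-NC) on control feeding, and 3.02, 10.9 and 10.2 CPM (FLOX-ALD) and 3.93, 5.05 and 1.9 CPM (LKO-ALD) on NIAAA feeding. The highest NIAAA value, 10.9 CPM, was under the lowest control value, 21.7 CPM, and Nr0b2 fell by 2.35 (SE 0.355, edgeR adjusted p = 0.00722). Cyp27a1, the mitochondrial sterol 27-hydroxylase of the alternative pathway, ran from 436 to 569.5 CPM on control feeding and 215 to 272 CPM on NIAAA feeding and fell by 1.06 (SE 0.160, edgeR adjusted p = 0.00551). Both calls held without any 1 library (edgeR adjusted p up to 0.0268 and 0.0299). These were 2 of 25 tested genes of bile acid synthesis and transport, 0 rose, and the list's median was −0.15.

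Lists of fatty acid synthesis and oxidation held lower calls and no higher ones. Of 24 tested genes of fatty acid synthesis and desaturation 3 fell (12.5%) and 0 rose, 21 differences were negative, and the median was −0.88. Elovl2, the elongase of very long polyunsaturated fatty acids, measured 591, 484 and 447 CPM (FLOX-NC) and 520.2 and 717 CPM (LKO-NC) on control feeding, and 352, 108 and 173 CPM (FLOX-ALD) and 244, 413 and 169 CPM (LKO-ALD) on NIAAA feeding and fell by 1.22 (SE 0.299, edgeR adjusted p = 0.0405) without overlap. Fads2, the delta-6 desaturase of the same pathway, ran from 568.0 to 1093 CPM on control feeding and 168 to 573 CPM on NIAAA feeding, overlapped only through FLOX-ALD replicate 1 at 573 CPM, and fell by 1.22 (SE 0.311, edgeR adjusted p = 0.049). Gpam, which starts glycerolipid synthesis, fell by 1.21 (SE 0.276, edgeR adjusted p = 0.0326). The count of the list was 0 (without FLOX-NC replicate 1 or 3, LKO-ALD replicate 1 or LKO-NC replicate 2) to 7 (without LKO-ALD replicate 2). DESeq2 called 10 members lower, and 1 was called in the 8 libraries. The Elovl2 call was lost on leaving out FLOX-NC replicate 1, 2 or 3, LKO-NC replicate 1 or 2, FLOX-ALD replicate 3 or LKO-ALD replicate 1 or 3 (edgeR adjusted p up to 0.142). That of Fads2 was lost on leaving out FLOX-NC replicate 1, 2 or 3, LKO-NC replicate 1 or 2, FLOX-ALD replicate 2 or 3 or LKO-ALD replicate 1 or 3 (edgeR adjusted p up to 0.16).

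Fatty acid oxidation and PPARA target genes had 4 lower members of 34 and 0 higher, with a median of −0.06. Cyp4a32, an omega-hydroxylase of a family of near-identical genes whose reads may be split, measured 22.3, 39.3 and 45.5 CPM (FLOX-NC) and 31.4 and 53.5 CPM (LKO-NC) on control feeding, and 8.81, 9.09 and 6.0 CPM (FLOX-ALD) and 16.5, 11.9 and 5.42 CPM (LKO-ALD) on NIAAA feeding. All NIAAA libraries were at 16.5 CPM or less and all control libraries at 22.3 CPM or more, and Cyp4a32 fell by 2.05 (SE 0.282, edgeR adjusted p = 0.0037). Fabp1, the liver fatty acid binding protein, ran from 4834 to 7646 CPM on control feeding and 2144 to 4078 CPM on NIAAA feeding and fell by 1.05 (SE 0.247, edgeR adjusted p = 0.0359). The Fabp1 call was lost on leaving out FLOX-NC replicate 1, 2 or 3, LKO-NC replicate 2 or LKO-ALD replicate 1 or 3 (edgeR adjusted p up to 0.15). Ppara, described above, and Pex11a, a peroxisome division protein, were the other called members, and Pex11a fell by 0.85 (SE 0.165, edgeR adjusted p = 0.0166). Plin2, the lipid droplet coat protein, had no call, with 175 to 275 CPM on control feeding and 95.2 to 435 CPM on NIAAA feeding and a difference of 0.33 (SE 0.300, edgeR adjusted p = 0.589).

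Among 18 acyl-CoA thioesterases and N-acyltransferases 2 rose and 0 fell. Acnat2, of the acyl-CoA amino acid N-acyltransferase family, measured 11.6, 16 and 9.37 CPM (FLOX-NC) and 29.4 and 45 CPM (LKO-NC) on control feeding, and 188, 71 and 133 CPM (FLOX-ALD) and 62.1, 84.3 and 124 CPM (LKO-ALD) on NIAAA feeding. It was higher in all 6 NIAAA libraries and rose by 2.42 (SE 0.452, edgeR adjusted p = 0.0192). Control libraries of Cre mice were above those of floxed mice, and the Acnat2 difference was 3.41 in floxed and 1.28 in Cre mice. This interaction was not called in edgeR over all genes (unadjusted p = 0.00166). The Acnat2 call was lost on leaving out FLOX-NC replicate 1 or 2 or LKO-NC replicate 1 (edgeR adjusted p up to 0.0591). Acot6 was low, at 0.0417 to 0.723 CPM on control feeding and 0.333 to 3.54 CPM on NIAAA feeding, and rose by 2.82 (SE 0.660, edgeR adjusted p = 0.035). The Acot6 call was lost on leaving out FLOX-NC replicate 1 or 3, LKO-NC replicate 1 or 2, FLOX-ALD replicate 1 or 2 or LKO-ALD replicate 1 or 3 (edgeR adjusted p up to 0.096).

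Lpcat3 (ENSMUSG00000004270, chr6:124663027-124704418, + strand, mm10), the floxed gene, encodes the enzyme that places polyunsaturated acyl chains into lysophospholipids. It measured 103, 87.1 and 101 CPM (FLOX-NC) and 29.2 and 37.2 CPM (LKO-NC) on control feeding, and 37.9, 43.2 and 30.5 CPM (FLOX-ALD) and 10.8, 15.4 and 9.8 CPM (LKO-ALD) on NIAAA feeding. It was lower on NIAAA feeding within each genotype, with no overlap, and pooled groups overlapped because LKO-NC was as low as FLOX-ALD. The pooled fall was 1.42 (SE 0.160, edgeR adjusted p = 0.00107), and the call held without any 1 library (edgeR adjusted p up to 0.00959). Lpcat3 overlaps Emg1 on the opposite strand, and the counting strand is not given in the sources used here. Of 16 tested genes in a list of lysophospholipid acyltransferases and Tmem86 lysoplasmalogenases 3 fell, Lpcat3, Tmem86a and Lpcat2, and 1 rose, Lpgat1. Tmem86a, which belongs to the latter, ran from 8.09 to 35.1 CPM on control feeding and 2.27 to 10.7 CPM on NIAAA feeding and fell by 1.68 (SE 0.357, edgeR adjusted p = 0.0266). Lpcat2, which also makes platelet-activating factor, fell by 1.41 (SE 0.338, edgeR adjusted p = 0.0373). Lpgat1, an acyltransferase named for lysophosphatidylglycerol, ran from 114 to 148 CPM on control feeding and 125 to 508 CPM on NIAAA feeding and rose by 1.19 (SE 0.290, edgeR adjusted p = 0.0399), with FLOX-ALD replicate 2 at 125 CPM inside the control range. The Tmem86a call was lost on leaving out FLOX-NC replicate 1 or 2, LKO-NC replicate 1 or 2 or LKO-ALD replicate 1 (edgeR adjusted p up to 0.0755). That of Lpgat1 was lost on leaving out FLOX-NC replicate 1, 2 or 3, LKO-NC replicate 1 or 2, FLOX-ALD replicate 1 or LKO-ALD replicate 1, 2 or 3 (edgeR adjusted p up to 0.133). Lpcat3 was also the single called gene of 18 LXR targets. Scarb1, the HDL receptor, ran from 78 to 100.4 CPM on control feeding and 38 to 62.5 CPM on NIAAA feeding and fell by 0.74 (SE 0.171, edgeR adjusted p = 0.0331), the single call of 20 apolipoprotein and lipoprotein genes. The Scarb1 call was lost on leaving out FLOX-NC replicate 1, 2 or 3, LKO-NC replicate 1 or 2 or LKO-ALD replicate 1 or 3 (edgeR adjusted p up to 0.124).

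Xenobiotic enzymes held the 2 lists with the most higher calls, and the lists share the called genes Gstm3, Gsta2, Gstm1 and Gstm2. Of 27 tested CAR and PXR targets 7 rose (25.9%, against 1.57% of all genes called higher) and 1 fell, with a median of 0.67. Cyp2b10 (ENSMUSG00000030483, chr7:25897620-25926624, + strand, mm10), the classical CAR target, was near 0 on control feeding, with counts of 0, 4 and 26 (FLOX-NC) and 0 and 14 (LKO-NC). On NIAAA feeding its counts were 825, 2477 and 287 (FLOX-ALD) and 6135, 6345 and 5793 (LKO-ALD). In CPM these were 0, 0.0826 and 0.526 CPM (FLOX-NC) and 0 and 0.292 CPM (LKO-NC) on control feeding, and 12.7, 47.1 and 7.36 CPM (FLOX-ALD) and 125, 103 and 78.8 CPM (LKO-ALD) on NIAAA feeding. Every NIAAA library exceeded every control library, and the fitted rise of 7.91 (SE 1.11, edgeR adjusted p = 0.0097) depends on the prior count at such low control values. The Cyp2b10 call was lost on leaving out LKO-NC replicate 2 (edgeR adjusted p up to 0.0537). Nr1i2, the gene of PXR itself, ran from 94.1 to 132 CPM on control feeding and 33.4 to 65.6 CPM on NIAAA feeding and fell by 1.08 (SE 0.192, edgeR adjusted p = 0.0123), without overlap. The other 6 higher targets were Gstm3, Gsta2, Cyp2a5, Gstm1, Cyp2c37 and Gstm2. Cyp2a5, a coumarin hydroxylase, rose by 1.90 (SE 0.445, edgeR adjusted p = 0.0359) from a mean of 451 to 1693 CPM, and Cyp2c37 rose by 1.37 (SE 0.260, edgeR adjusted p = 0.0154). The number of called targets ran from 2 (without LKO-NC replicate 2) to 10 (without FLOX-ALD replicate 1). In the 8 libraries 4 rose and 0 fell, and the median was 0.16.

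Phase II enzymes, which conjugate electrophiles and hydroxylated compounds, had 8 higher members of 30 tested (26.7%) and 0 lower, with a median of 0.22. All but 1 were glutathione transferases, and the exception was the sulfotransferase Sult1a1, which rose by 1.06 (SE 0.261, edgeR adjusted p = 0.0419). Gstt3 measured 9.54, 7.06 and 16.9 CPM (FLOX-NC) and 8.12 and 13.9 CPM (LKO-NC) on control feeding, and 93, 71.4 and 17.4 CPM (FLOX-ALD) and 124, 103 and 102 CPM (LKO-ALD) on NIAAA feeding. FLOX-ALD replicate 3, at 17.4 CPM, stood just above the highest control library at 16.9 CPM, and the other 5 NIAAA libraries were at 71.4 CPM or more. Gstt3 rose by 2.82 (SE 0.430, edgeR adjusted p = 0.00867), and the call held without any 1 library (edgeR adjusted p up to 0.0378). Gstm3 measured 30.2, 13.4 and 18.7 CPM (FLOX-NC) and 49.5 and 21.9 CPM (LKO-NC) on control feeding, and 53.1, 275 and 62.8 CPM (FLOX-ALD) and 274, 113 and 313 CPM (LKO-ALD) on NIAAA feeding and rose by 2.67 (SE 0.501, edgeR adjusted p = 0.0205). The Gstm3 call was lost on leaving out FLOX-NC replicate 2 or 3 or LKO-NC replicate 1 or 2 (edgeR adjusted p up to 0.0721). Gsta2 ran from 2.71 to 7.99 CPM on control feeding and 12 to 70.2 CPM on NIAAA feeding and rose by 2.55 (SE 0.524, edgeR adjusted p = 0.0297). The Gsta2 call was lost on leaving out FLOX-NC replicate 1, 2 or 3, LKO-NC replicate 1 or 2 or LKO-ALD replicate 1 or 3 (edgeR adjusted p up to 0.101). Gstm1 and Gstm2 rose by 1.40 and 1.35 (edgeR adjusted p = 0.0253 and edgeR adjusted p = 0.014), and Gstm4 and Gsta4 by 1.92 and 0.98 (edgeR adjusted p = 0.0343 and edgeR adjusted p = 0.0359). The mu and alpha class genes are near-identical within each class, so reads could be split among them. Of the phase II list 2 (without FLOX-NC replicate 2 or 3 or LKO-NC replicate 1 or 2) to 8 (without FLOX-ALD replicate 3) members were called. In the 8 libraries 3 rose, and the median was −0.04. Nqo1, the quinone reductase induced by NRF2, ran from 2.21 to 6.13 CPM on control feeding and 4.36 to 14.8 CPM on NIAAA feeding and rose by 1.40 (SE 0.294, edgeR adjusted p = 0.0247), the single call among 23 NRF2 response genes. The Nqo1 call was lost on leaving out FLOX-NC replicate 1, 2 or 3, LKO-NC replicate 2 or LKO-ALD replicate 1 (edgeR adjusted p up to 0.0796).

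Cyp26a1, the retinoic acid hydroxylase, measured 4.54, 3.08 and 5.5 CPM (FLOX-NC) and 1.28 and 4.21 CPM (LKO-NC) on control feeding, and 16.8, 39.1 and 9.2 CPM (FLOX-ALD) and 46, 35.7 and 18.3 CPM (LKO-ALD) on NIAAA feeding. It was higher in all 6 NIAAA libraries, rose by 2.86 (SE 0.502, edgeR adjusted p = 0.0154), and the call was lost on leaving out LKO-NC replicate 2 (edgeR adjusted p up to 0.0656).

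The ethanol-oxidising enzymes themselves gave no call among 13 tested genes, of which 9 had negative differences (median −0.39, edgeR). At an unadjusted threshold of 0.05, 4 members passed, and DESeq2 called 3, all lower. Cyp2e1, the microsomal ethanol oxidase, measured 5315, 4474 and 3370.5 CPM (FLOX-NC) and 1220.5 and 3526 CPM (LKO-NC) on control feeding, and 2695, 4483 and 2037 CPM (FLOX-ALD) and 4866, 4213 and 3712 CPM (LKO-ALD) on NIAAA feeding. Its libraries overlapped broadly, and its difference was 0.07 (SE 0.365, edgeR adjusted p = 0.94), with a negative sign without LKO-NC replicate 1 (−0.27). Cat, catalase, measured 2798, 2721 and 2442 CPM (FLOX-NC) and 1426 and 2639 CPM (LKO-NC) on control feeding, and 1282, 1689 and 1144 CPM (FLOX-ALD) and 1831, 1873 and 1183 CPM (LKO-ALD) on NIAAA feeding and differed by −0.67 (SE 0.246, edgeR adjusted p = 0.139), with LKO-NC replicate 1 alone among control libraries inside the NIAAA range. Adh1 and Aldh2, the main cytosolic alcohol and mitochondrial aldehyde dehydrogenases, differed by 0.13 (SE 0.267) and 0.02 (SE 0.213).

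**Figure D3:**
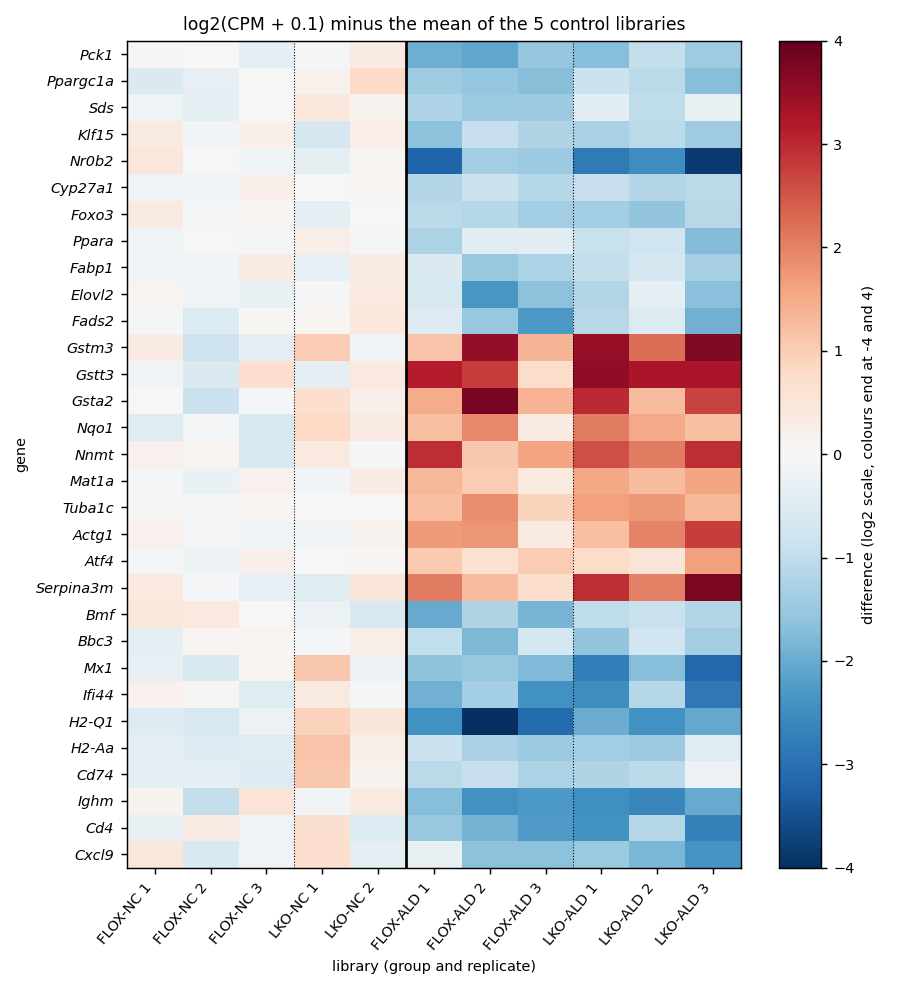
Level of 31 called genes (rows) in each library (columns, control left of the solid line) as log2(CPM + 0.1) minus the mean of the 5 control libraries. Red is higher and blue is lower, with colours ending at 4 in either direction. The NIAAA columns share their colour for most genes, and FLOX-ALD replicate 3 is the palest for Gstt3, Nqo1, Mat1a and Actg1.

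Methyl group and nicotinamide metabolism changed in single enzymes. Nnmt (ENSMUSG00000032271, chr9:48591877-48605153, - strand, mm10), nicotinamide N-methyltransferase, which removes nicotinamide at the cost of S-adenosylmethionine, measured 106, 99.3 and 60.7 CPM (FLOX-NC) and 121 and 90 CPM (LKO-NC) on control feeding, and 723, 198 and 280.1 CPM (FLOX-ALD) and 558, 396 and 719 CPM (LKO-ALD) on NIAAA feeding. All 6 NIAAA libraries were at 198 CPM or more and all control libraries at 121 CPM or less. Nnmt rose by 2.27 (SE 0.331, edgeR adjusted p = 0.0051), by 2.17 in floxed and 2.40 in Cre mice, and the call held without any 1 library (edgeR adjusted p up to 0.0278). Mat1a, the liver enzyme that makes S-adenosylmethionine, ran from 1979 to 2924 CPM on control feeding and 3156 to 7129 CPM on NIAAA feeding and rose by 1.17 (SE 0.238, edgeR adjusted p = 0.0216). The Mat1a call was lost on leaving out FLOX-NC replicate 1 or 2 or LKO-NC replicate 2 (edgeR adjusted p up to 0.0794). Nnmt and Mat1a were the 2 called of 25 methionine and one-carbon genes, both higher, with a list median of 0.08.

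Nnmt was also the only call among 23 genes of NAD synthesis and salvage, where 16 differences were negative (median −0.32). Nampt (ENSMUSG00000020572, chr12:32819545-32853349, + strand, mm10), the rate-limiting enzyme of NAD salvage named in the series title, measured 105, 78.9 and 120.1 CPM (FLOX-NC) and 68.6 and 80.1 CPM (LKO-NC) on control feeding, and 34.8, 43.6 and 41.9 CPM (FLOX-ALD) and 68.2, 72.5 and 128 CPM (LKO-ALD) on NIAAA feeding. FLOX-ALD libraries were all at 43.6 CPM or less, and every other library was at 68.2 CPM or more. The pooled difference was −0.65 (SE 0.302, edgeR adjusted p = 0.246) and averages a fall of 1.34 in floxed mice with 0.27 in Cre mice. The genotypes' feeding differences differed at an unadjusted interaction p of 0.00145, which did not pass over all genes.

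Stress and acute phase genes leaned upwards, with few calls in edgeR and more in DESeq2. Of 27 tested genes of the endoplasmic reticulum and integrated stress responses 1 rose and 25 differences were positive, with a median of 0.94. Atf4, the central factor of the integrated stress response, measured 113, 100.4 and 133 CPM (FLOX-NC) and 114 and 119.9 CPM (LKO-NC) on control feeding, and 239.9, 177 and 232 CPM (FLOX-ALD) and 191, 165 and 357 CPM (LKO-ALD) on NIAAA feeding. It was above every control library in all 6 NIAAA libraries and rose by 0.96 (SE 0.211, edgeR adjusted p = 0.0281). The Atf4 call was lost on leaving out FLOX-NC replicate 1, 2 or 3, LKO-NC replicate 1 or 2 or FLOX-ALD replicate 1 (edgeR adjusted p up to 0.0947). The list had 0 (without FLOX-ALD replicate 1, FLOX-NC replicate 1, 2 or 3 or LKO-NC replicate 1 or 2) to 6 (without FLOX-ALD replicate 2) members called. DESeq2 called 13 of the 27 higher, and in the 8 libraries 0 were called in edgeR (14 at an unadjusted p under 0.05, median 0.98). Of 32 acute phase genes 1 rose and 30 differences were positive, with a median of 1.29. Serpina3m, a serpin of the inflamed liver, measured 158, 116 and 97.1 CPM (FLOX-NC) and 86.4 and 171 CPM (LKO-NC) on control feeding, and 514, 284 and 197 CPM (FLOX-ALD) and 936, 488 and 1635 CPM (LKO-ALD) on NIAAA feeding and rose by 2.09 (SE 0.436, edgeR adjusted p = 0.0252). Serpina3m overlaps Serpina3k on the same strand, whose counts came to 1925% of those of Serpina3m. The Serpina3m call was lost on leaving out FLOX-NC replicate 2 or 3, LKO-NC replicate 1 or 2 or FLOX-ALD replicate 1 (edgeR adjusted p up to 0.102). The summed acute phase level was 30241 to 44885 CPM on control feeding and 24676 to 152788 CPM on NIAAA feeding, with FLOX-ALD replicate 2 below every control library and FLOX-ALD replicate 1 and LKO-ALD replicate 3 at 152788 and 151425 CPM. Called members ran from 0 (without FLOX-ALD replicate 1, FLOX-NC replicate 2 or 3 or LKO-NC replicate 2) to 11 (without FLOX-ALD replicate 2). DESeq2 called 13 of the 32 higher. In the 8 libraries, where FLOX-ALD replicate 1 is the only FLOX-ALD library, the acute phase median was 2.00. With only FLOX-ALD replicate 1 left out it was 0.72.

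Complement and coagulation genes had 2 lower members of 34 and 0 higher (median −0.28). C9, which completes the membrane attack complex, measured 598, 673 and 443 CPM (FLOX-NC) and 362 and 339 CPM (LKO-NC) on control feeding, and 47.1, 163 and 243 CPM (FLOX-ALD) and 116, 148 and 66.2 CPM (LKO-ALD) on NIAAA feeding and fell by 1.81 (SE 0.342, edgeR adjusted p = 0.0154) without overlap, and the call held without any 1 library (edgeR adjusted p up to 0.0456). C2, a protease of the classical pathway, ran from 64.3 to 99.3 CPM on control feeding and 30.6 to 64.5 CPM on NIAAA feeding and fell by 0.78 (SE 0.174, edgeR adjusted p = 0.0297). The C2 call was lost on leaving out FLOX-NC replicate 1, 2 or 3, LKO-NC replicate 1 or 2, FLOX-ALD replicate 1 or LKO-ALD replicate 1 (edgeR adjusted p up to 0.0752).

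Interferon-stimulated genes, the antiviral effectors induced by type I and II interferons, held the most lower calls of any list. Of 36 tested 8 fell (22.2%, against 1.76% of all genes) and 0 rose, 33 differences were negative, and the median was −0.67. Mx1, a gene of the antiviral GTPase family, is annotated as a polymorphic pseudogene, so its transcript need not make a working protein. It measured 2.41, 1.98 and 3.2 CPM (FLOX-NC) and 6.6 and 2.56 CPM (LKO-NC) on control feeding. On NIAAA feeding it measured 0.936, 0.989 and 0.820 CPM (FLOX-ALD) and 0.368, 0.858 and 0.258 CPM (LKO-ALD). All NIAAA libraries were under 1 CPM and all control libraries at 1.98 CPM or more, with LKO-NC replicate 1 the highest. Mx1 fell by 2.26 (SE 0.431, edgeR adjusted p = 0.016), and the call held without any 1 library (edgeR adjusted p up to 0.0407). Ifi44, an interferon-induced cytoplasmic protein, measured 6.13, 5.64 and 3.84 CPM (FLOX-NC) and 7.06 and 5.19 CPM (LKO-NC) on control feeding, and 1.37, 2.05 and 0.948 CPM (FLOX-ALD) and 0.900, 2.44 and 0.666 CPM (LKO-ALD) on NIAAA feeding and fell by 2.00 (SE 0.342, edgeR adjusted p = 0.00995). Irf7, the factor that amplifies type I interferon, fell by 1.33 (SE 0.253, edgeR adjusted p = 0.0155). Ifit3, which binds viral RNA with its relatives, fell by 1.43 (SE 0.279, edgeR adjusted p = 0.0172), and Oas1g and Oasl2 of the oligoadenylate synthetase family by 1.65 and 1.25 (edgeR adjusted p = 0.0263 and edgeR adjusted p = 0.0183). Xaf1 and Dhx58, an apoptosis cofactor and a regulator of RNA sensing, fell by 1.20 and 0.87 (edgeR adjusted p = 0.0126 and edgeR adjusted p = 0.0326). The number of calls ran from 5 (without LKO-NC replicate 1 or 2) to 12 (without FLOX-ALD replicate 1). DESeq2 called 16 of the 36 lower, whereas in the 8 libraries 1 fell and the median was −0.55.

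Single genes of other immune lists fell. H2-Q1, a class I histocompatibility gene, measured 11.2, 10.2 and 13.7 CPM (FLOX-NC) and 30.6 and 22.3 CPM (LKO-NC) on control feeding, and 2.9, 0.722 and 1.79 CPM (FLOX-ALD) and 4.01, 2.9 and 3.78 CPM (LKO-ALD) on NIAAA feeding. It did not overlap between feedings and fell by 2.78 (SE 0.282, edgeR adjusted p = 0.000523), and the call held without any 1 library (edgeR adjusted p up to 0.00246). H2-Q1 has near-identical paralogs, and it was the only call of 19 class I genes (17 negative, median −0.45). Nfkbia, the inhibitor of NF-κB that is also its target, ran from 44.9 to 67.7 CPM on control feeding and 26.8 to 36.2 CPM on NIAAA feeding and fell by 0.90 (SE 0.150, edgeR adjusted p = 0.00936). Its call held without any 1 library (edgeR adjusted p up to 0.0484). Cxcl9, an interferon-γ-induced chemokine, ran from 7.85 to 19.1 CPM on control feeding and 2.26 to 9.79 CPM on NIAAA feeding and fell by 1.52 (SE 0.349, edgeR adjusted p = 0.0338), and FLOX-ALD replicate 1, at 9.79 CPM, was the highest NIAAA library. The Cxcl9 call was lost on leaving out FLOX-NC replicate 1 or 3, LKO-NC replicate 1 or 2, FLOX-ALD replicate 2 or 3 or LKO-ALD replicate 1, 2 or 3 (edgeR adjusted p up to 0.0881). Nfkbia and Cxcl9 were the 2 calls among 28 NF-κB, cytokine and chemokine genes, of which 12 had positive and 16 negative differences (median −0.08). DESeq2 called 4 of them lower and 6 of the class I genes, and in the 8 libraries 1 of the 28 rose and 1 fell.

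A minority of lymphocyte and antigen-presenting cell markers passed the test, and those that did fell. In bulk tissue, fewer cells of a type and less RNA per cell cannot be told apart. Of 10 tested B and plasma cell markers 3 fell (30%), all 10 differences were negative, and the median was −1.39. By genotype the B and plasma cell median was −0.73 in floxed and −2.42 in Cre mice. Pooled, it was −1.63 without FLOX-ALD replicate 1 and −1.10 without LKO-NC replicate 1. 5 of the 10 averaged over 1 CPM. Ighm, the immunoglobulin mu heavy chain, measured 10.2, 4.77 and 13.5 CPM (FLOX-NC) and 8.51 and 11.9 CPM (LKO-NC) on control feeding, and 2.75, 1.65 and 1.82 CPM (FLOX-ALD) and 1.6, 1.44 and 2.22 CPM (LKO-ALD) on NIAAA feeding and fell by 2.35 (SE 0.277, edgeR adjusted p = 0.00141). Its call held without any 1 library (edgeR adjusted p up to 0.00961). Igkc, the kappa light chain, fell by 1.83 (SE 0.376, edgeR adjusted p = 0.0237). Cd22, an inhibitory coreceptor of the B cell receptor, ran from 0.809 to 3.29 CPM on control feeding and 0.164 to 0.692 CPM on NIAAA feeding and fell by 2.23 (SE 0.471, edgeR adjusted p = 0.025), and its call was lost on leaving out FLOX-NC replicate 2, LKO-NC replicate 2 or LKO-ALD replicate 1 or 3 (edgeR adjusted p up to 0.0683). The list had 1 call on leaving out LKO-NC replicate 2 and 1 in the 8 libraries, and 5 in DESeq2. The list's summed level was 21.2 to 38.9 CPM on control feeding and 4.79 to 11.7 CPM on NIAAA feeding, without overlap. Cd4, the coreceptor of helper T cells, ran from 1.06 to 2.58 CPM on control feeding and 0.163 to 0.680 CPM on NIAAA feeding and fell by 2.21 (SE 0.423, edgeR adjusted p = 0.0161), the single call of 11 T and NK cell markers (2 over 1 CPM). The Cd4 call was lost on leaving out LKO-NC replicate 1 (edgeR adjusted p up to 0.0541). The summed T and NK level was 6.57 to 12.8 CPM on control feeding and 2.92 to 6.77 CPM on NIAAA feeding. By genotype the median difference of T and NK markers was −0.015 in floxed and −1.175 in Cre mice. The pooled median was −0.627, and −1.142 without FLOX-ALD replicate 1. That library had the highest T and NK sum on NIAAA feeding, and LKO-NC replicate 1 had the highest on control feeding. In the 8 libraries edgeR called 0 T and NK markers (1 passed 0.05 unadjusted), and DESeq2 with all 11 called 1.

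Of 15 dendritic cell and class II markers 2 fell, with a median of −0.98. By genotype this median was −0.41 in floxed and −1.57 in Cre mice. Pooled, it was −1.095 without FLOX-NC replicate 3, −1.063 without FLOX-ALD replicate 1 and −0.547 without LKO-NC replicate 1. H2-Aa, a class II chain, measured 17.8, 16.1 and 16.6 CPM (FLOX-NC) and 51.9 and 27.4 CPM (LKO-NC) on control feeding, and 12.9, 9.32 and 8.48 CPM (FLOX-ALD) and 8.96, 8.45 and 16.4 CPM (LKO-ALD) on NIAAA feeding and fell by 1.22 (SE 0.262, edgeR adjusted p = 0.0263). Its companion Cd74, the invariant chain, measured 32.5, 32.5 and 29.4 CPM (FLOX-NC) and 88.9 and 46.3 CPM (LKO-NC) on control feeding, and 19.9, 21.9 and 17.4 CPM (FLOX-ALD) and 18.1, 20.4 and 35.8 CPM (LKO-ALD) on NIAAA feeding and fell by 1.02 (SE 0.228, edgeR adjusted p = 0.0297). LKO-NC replicate 1 was the highest library for both. The H2-Aa call was lost on leaving out FLOX-NC replicate 1, LKO-NC replicate 1 or 2 or LKO-ALD replicate 1 (edgeR adjusted p up to 0.0688). That of Cd74 was lost on leaving out FLOX-NC replicate 1, 2 or 3, LKO-NC replicate 1 or 2 or LKO-ALD replicate 1 (edgeR adjusted p up to 0.0671). Summed class II and dendritic markers ran from 96.4 to 278 CPM on control feeding and 64.6 to 126 CPM on NIAAA feeding. DESeq2 called 7 of them lower, and in the 8 libraries edgeR called 0 (5 passed 0.05 unadjusted). Kupffer cell markers had 0 calls of 15 in edgeR, with 13 negative differences and a median of −0.66. By genotype the Kupffer median was −0.045 in floxed and −1.468 in Cre mice. Pooled, it was −1.171 without FLOX-ALD replicate 1 and −0.425 without LKO-NC replicate 1. These 2 libraries had the highest Kupffer sums of their feedings. Kupffer sums were 234 to 549 CPM on control feeding and 136 to 449 CPM on NIAAA feeding. Unadjusted, 6 Kupffer markers passed 0.05, DESeq2 called 3, and without FLOX-ALD replicate 1 edgeR called 4, all lower. Clec4f, the Kupffer cell lectin, measured 73.1, 78 and 51.9 CPM (FLOX-NC) and 136 and 78.3 CPM (LKO-NC) on control feeding, and 87, 43.9 and 42.4 CPM (FLOX-ALD) and 17.1, 29.1 and 37.5 CPM (LKO-ALD) on NIAAA feeding, and its difference was −1.01 (SE 0.362, edgeR adjusted p = 0.139). The Clec4f difference was −0.23 in floxed and −1.94 in Cre mice. This interaction was not called in edgeR over all genes (unadjusted p = 0.00632). Neutrophil markers had 0 calls of 11 (4 over 1 CPM) in edgeR and in DESeq2, and 2 passed 0.05 unadjusted, with 9 positive differences and a median of 1.26. By genotype the neutrophil median was 2.21 in floxed and −0.21 in Cre mice. Pooled, it was 1.02 without FLOX-ALD replicate 1 and 2.02 without LKO-NC replicate 1. In the 8 libraries 3 neutrophil markers rose. S100a9, a neutrophil calcium-binding protein, measured 1.44, 0.537 and 0.465 CPM (FLOX-NC) and 20.3 and 0.897 CPM (LKO-NC) on control feeding, and 7.03, 1.6 and 8.36 CPM (FLOX-ALD) and 8.02, 6.49 and 13 CPM (LKO-ALD) on NIAAA feeding, and LKO-NC replicate 1 was the highest of all 11 libraries. The pooled S100a9 difference was 1.34 (SE 0.913, edgeR adjusted p = 0.458), and it ran from 0.98 to 2.96 over the refits without 1 library. The part of these cell types in the falls of interferon-stimulated and class II genes was not tested.

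Among markers of other liver cells, Lyve1, the hyaluronan receptor of sinusoidal endothelium, ran from 3.37 to 10.5 CPM on control feeding and 6.31 to 28.9 CPM on NIAAA feeding and rose by 1.27 (SE 0.258, edgeR adjusted p = 0.0215), 1 of 15 in its list. Of these 15 endothelial markers 12 had positive differences (median 0.51), and 9 passed 0.05 unadjusted in edgeR. DESeq2 called 3 of them higher, and their median in the 8 libraries was 0.20. The Lyve1 call was lost on leaving out FLOX-NC replicate 1 or 2 or LKO-NC replicate 2 (edgeR adjusted p up to 0.0656). Hgf, the hepatocyte growth factor made by stellate cells, ran from 1.58 to 2.79 CPM on control feeding and 3.64 to 11.6 CPM on NIAAA feeding and rose by 1.29 (SE 0.300, edgeR adjusted p = 0.035), 1 of 15 in its list. Of these 15 stellate cell markers 12 had positive differences (median 0.26), and 6 passed 0.05 unadjusted in edgeR. DESeq2 called 3 of them higher and 1 lower, and their median in the 8 libraries was 0.15. The Hgf call was lost on leaving out FLOX-NC replicate 1 or 2, LKO-NC replicate 1 or 2, FLOX-ALD replicate 2 or LKO-ALD replicate 1 or 3 (edgeR adjusted p up to 0.114).

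Of 17 tested tubulin and cytoskeleton genes 4 rose (23.5%) and 0 fell, with a median of 0.70. Tuba1c, an alpha-tubulin, was tight on control feeding and measured 19.6, 17.9 and 19.9 CPM (FLOX-NC) and 19.1 and 18.6 CPM (LKO-NC) on control feeding, and 43.7, 68.8 and 35.2 CPM (FLOX-ALD) and 59.9, 63.6 and 47.9 CPM (LKO-ALD) on NIAAA feeding. It rose by 1.47 (SE 0.179, edgeR adjusted p = 0.00156), and the call held without any 1 library (edgeR adjusted p up to 0.0127). Actg1, cytoplasmic gamma-actin, measured 18.2, 15.3 and 14.3 CPM (FLOX-NC) and 15 and 17.5 CPM (LKO-NC) on control feeding, and 52.4, 54.9 and 20.4 CPM (FLOX-ALD) and 37.3, 63.3 and 109 CPM (LKO-ALD) on NIAAA feeding and rose by 1.72 (SE 0.315, edgeR adjusted p = 0.015). Its call was lost on leaving out LKO-NC replicate 1 or 2 (edgeR adjusted p up to 0.0673). The beta-tubulins Tubb4b and Tubb5 rose by 0.98 (SE 0.166, edgeR adjusted p = 0.00943) and 0.70 (SE 0.177, edgeR adjusted p = 0.0471). Tubulin and actin genes have close paralogs, so reads could be split. Rplp2, a ribosomal stalk protein, ran from 52.8 to 73.6 CPM on control feeding and 90.8 to 191 CPM on NIAAA feeding and rose by 1.04 (SE 0.209, edgeR adjusted p = 0.0209). It was the single call of 43 cytosolic ribosomal proteins, of which 41 had positive differences (median 0.36). The Rplp2 call was lost on leaving out FLOX-NC replicate 2 or LKO-NC replicate 1 or 2 (edgeR adjusted p up to 0.0596).

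Some cell death and immediate-early genes fell. Of 25 BCL2 family and cell death genes 4 fell (16%) and 0 rose. Bmf and Bbc3 are BH3-only proteins that promote apoptosis. Bmf measured 9.64, 9.34 and 7.16 CPM (FLOX-NC) and 6.04 and 4.61 CPM (LKO-NC) on control feeding, and 1.67, 3.0 and 1.9 CPM (FLOX-ALD) and 3.48, 3.79 and 3.07 CPM (LKO-ALD) on NIAAA feeding and fell by 1.40 (SE 0.288, edgeR adjusted p = 0.0228). The fall was 1.99 in floxed and 0.63 in Cre mice, an interaction that was not called in edgeR over all genes. Bbc3, which encodes PUMA, ran from 5.18 to 8.05 CPM on control feeding and 1.86 to 4.13 CPM on NIAAA feeding and fell by 1.19 (SE 0.245, edgeR adjusted p = 0.0234). Casp9, the initiator caspase of the mitochondrial pathway, and Bid, a BH3-only protein, fell by 1.11 (SE 0.268, edgeR adjusted p = 0.0384) and 0.94 (SE 0.233, edgeR adjusted p = 0.0435). The Bmf call was lost on leaving out FLOX-NC replicate 1 or 2 (edgeR adjusted p up to 0.0573), and that of Bbc3 was lost on leaving out FLOX-NC replicate 2 or 3 or LKO-NC replicate 2 (edgeR adjusted p up to 0.0931). The list count ran from 0 (without FLOX-NC replicate 2) to 4 (without LKO-ALD replicate 2). It was 2 in the 8 libraries.

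Dusp1, a phosphatase that switches off MAP kinases, measured 67.7, 31.1 and 48.1 CPM (FLOX-NC) and 34.3 and 66.2 CPM (LKO-NC) on control feeding, and 6.14, 11 and 11.2 CPM (FLOX-ALD) and 8.73, 18.7 and 20.1 CPM (LKO-ALD) on NIAAA feeding. Its highest NIAAA library, at 20.1 CPM, was below its lowest control library, at 31.1 CPM. Dusp1 fell by 2.06 (SE 0.303, edgeR adjusted p = 0.00551), and the call held without any 1 library (edgeR adjusted p up to 0.0299). Dusp1 overlaps Ergic1 on the opposite strand, whose counts came to 98.3% of those of Dusp1. Ier2, an early response gene, ran from 15.7 to 22.6 CPM on control feeding and 9.44 to 13.8 CPM on NIAAA feeding and fell by 0.83 (SE 0.156, edgeR adjusted p = 0.0154). Both were immediate-early genes, of which 30 were tested, 0 rose and 15 differences were negative, and the median was 0.005. The Ier2 call was lost on leaving out LKO-NC replicate 2 (edgeR adjusted p up to 0.0639). Calcoco1, an autophagy receptor for the endoplasmic reticulum, measured 43.6, 42.5 and 41 CPM (FLOX-NC) and 40.8 and 51.9 CPM (LKO-NC) on control feeding, and 17.6, 15 and 20.8 CPM (FLOX-ALD) and 19.6, 22.5 and 14.4 CPM (LKO-ALD) on NIAAA feeding and fell by 1.27 (SE 0.151, edgeR adjusted p = 0.00142). Calcoco1 and Foxo3 were the 2 calls of 26 autophagy and lysosome genes, and both held without any 1 library. Mcm6, a subunit of the replicative helicase, ran from 4.17 to 8.44 CPM on control feeding and 1.39 to 3.64 CPM on NIAAA feeding and fell by 1.24 (SE 0.272, edgeR adjusted p = 0.027), 1 of 28 cell cycle genes. The Mcm6 call was lost on leaving out FLOX-NC replicate 1 or 2 or LKO-NC replicate 2 (edgeR adjusted p up to 0.119).

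Among the transporters of the Slc16 family 2 of 12 rose. Slc16a5 measured 2.47, 4.28 and 4.09 CPM (FLOX-NC) and 17 and 9.26 CPM (LKO-NC) on control feeding, and 19.4, 27.2 and 11.4 CPM (FLOX-ALD) and 37.3, 39.2 and 17.2 CPM (LKO-ALD) on NIAAA feeding, with higher control values in Cre mice, and rose by 1.88 (SE 0.341, edgeR adjusted p = 0.0145). The Slc16a5 call was lost on leaving out LKO-NC replicate 2 (edgeR adjusted p up to 0.0537). Slc16a6, a transporter linked to ketone body export in zebrafish, ran from 14.5 to 19.9 CPM on control feeding and 21.8 to 90.1 CPM on NIAAA feeding, and FLOX-ALD replicate 1 was the highest library. Slc16a6 rose by 1.23 (SE 0.307, edgeR adjusted p = 0.0469), and overlaps Arsg and Amz2 on the opposite strand. The Slc16a6 call was lost on leaving out FLOX-NC replicate 1, 2 or 3, LKO-NC replicate 1 or 2, FLOX-ALD replicate 3 or LKO-ALD replicate 1, 2 or 3 (edgeR adjusted p up to 0.112).

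The largest changes also included genes outside the lists. Slc34a2, a sodium-phosphate cotransporter, had a count of 0 in 4 control libraries and of 7 in FLOX-NC replicate 3. On NIAAA feeding its counts were 208, 462 and 48 (FLOX-ALD) and 349, 301 and 65 (LKO-ALD), and the call held without any 1 library (edgeR adjusted p up to 0.0352). Hapln4, a hyaluronan and proteoglycan link protein, measured 5.47, 3.63 and 3.99 CPM (FLOX-NC) and 3.66 and 4.69 CPM (LKO-NC) on control feeding, and 58.5, 9.49 and 39.7 CPM (FLOX-ALD) and 14.4, 21 and 53.1 CPM (LKO-ALD) on NIAAA feeding and rose by 2.94 (SE 0.473, edgeR adjusted p = 0.0113). Ptges, the inducible prostaglandin E synthase, ran from 0.186 to 1.15 CPM on control feeding and 1.51 to 8.7 CPM on NIAAA feeding and rose by 2.82 (SE 0.526, edgeR adjusted p = 0.015). Both calls held without any 1 library.

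On the lower side, Fbf1, a component of ciliary transition fibres, measured 30.2, 106 and 49.2 CPM (FLOX-NC) and 195 and 86.8 CPM (LKO-NC) on control feeding, and 12.4, 14.6 and 10.8 CPM (FLOX-ALD) and 11.5, 7.59 and 15.4 CPM (LKO-ALD) on NIAAA feeding and fell by 2.90 (SE 0.391, edgeR adjusted p = 0.0051). Col5a3, a fibrillar collagen chain, measured 78, 85.5 and 97.3 CPM (FLOX-NC) and 129 and 60 CPM (LKO-NC) on control feeding, and 3.84, 33.9 and 15.8 CPM (FLOX-ALD) and 14.1, 15.5 and 4.27 CPM (LKO-ALD) on NIAAA feeding and fell by 2.64 (SE 0.520, edgeR adjusted p = 0.0263). The Col5a3 call was lost on leaving out FLOX-NC replicate 1, 2 or 3, LKO-NC replicate 1 or 2 or LKO-ALD replicate 1 (edgeR adjusted p up to 0.0781). The adhesion receptor gene Adgrv1 ran from 2.34 to 8.45 CPM on control feeding and 0.368 to 1.35 CPM on NIAAA feeding and fell by 2.50 (SE 0.437, edgeR adjusted p = 0.0113). Gria3 and Kcna2, which encode a glutamate receptor subunit and a potassium channel, fell by 2.42 (SE 0.404, edgeR adjusted p = 0.00943) and 2.40 (SE 0.416, edgeR adjusted p = 0.0111). The calls of Fbf1, Adgrv1, Gria3 and Kcna2 held without any 1 library. Tff3, a trefoil peptide of mucosal epithelia, ran from 3.82 to 21.9 CPM on control feeding and 0.107 to 3.02 CPM on NIAAA feeding, with FLOX-ALD replicate 1 the lowest, and fell by 2.75 (SE 0.650, edgeR adjusted p = 0.0456). The Tff3 call was lost on leaving out FLOX-NC replicate 1, 2 or 3, LKO-NC replicate 1 or 2, FLOX-ALD replicate 2 or 3 or LKO-ALD replicate 1, 2 or 3 (edgeR adjusted p up to 0.133).

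Sex-biased liver genes differed most in FLOX-ALD replicate 1, the library with high Xist and no Y-linked counts, and male-biased genes were also low in other libraries. Of 21 female-biased genes 0 were called in edgeR and 0 in DESeq2, 8 passed 0.05 unadjusted, 20 differences were positive and the median was 4.39, and without FLOX-ALD replicate 1 the median was 1.03 and 2 rose. Their summed level was 9612 CPM in FLOX-ALD replicate 1 and 363 to 1630 CPM in the other 10 libraries. Of 20 male-biased genes 19 differences were negative with a median of −1.24 (−0.83 without FLOX-ALD replicate 1, when 4 fell and 1 rose). Their summed level was 25246 to 34173 CPM over FLOX-NC libraries, 4698 and 16067 CPM over LKO-NC libraries, 473 CPM in FLOX-ALD replicate 1 and 4261 to 12292 CPM in the other NIAAA libraries. Ugt2b38, a male-biased glucuronosyltransferase with close paralogs, was the 1 call. It measured 18.3, 39.5 and 21.2 CPM (FLOX-NC) and 2.47 and 9.99 CPM (LKO-NC) on control feeding, and 0.338, 2.59 and 2.92 CPM (FLOX-ALD) and 2.41, 1.78 and 1.28 CPM (LKO-ALD) on NIAAA feeding and fell by 2.92 (SE 0.653, edgeR adjusted p = 0.0374). The Ugt2b38 call was lost on leaving out FLOX-NC replicate 1, 2 or 3, LKO-NC replicate 2, FLOX-ALD replicate 2 or 3 or LKO-ALD replicate 1, 2 or 3 (edgeR adjusted p up to 0.145).

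The pooled term averages both genotypes, so each genotype's own difference was read beside it, in a fit with 1 mean per group. All 633 pooled calls had the same sign in both genotypes, which the pooled selection itself favours. Of these, 507 were called in neither genotype alone, and 17 in both. Floxed and Cre comparisons share no library, and calls of each were read in the other. However, each gene's variance was estimated from all 11 libraries together. Calls in either genotype therefore favour genes of little spread in both, which itself favours non-overlap. The shares below are thus not an independent check. The 42 calls in floxed mice (0.221% of genes) had the same sign in Cre mice for 41, and for 35 the LKO-ALD and LKO-NC libraries did not overlap in that direction, against 27.1% of all genes. The 182 calls in Cre mice (0.957%) had the same sign in floxed mice for 165 and no overlap in that direction for 109, against 13.9% of all genes. The share of all genes with the same sign in both was 60.2%. The median size of the floxed calls was 1.67 in floxed and 1.29 in Cre mice, and that of the Cre calls was 1.81 in Cre and 0.67 in floxed mice.

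**Figure D4:**
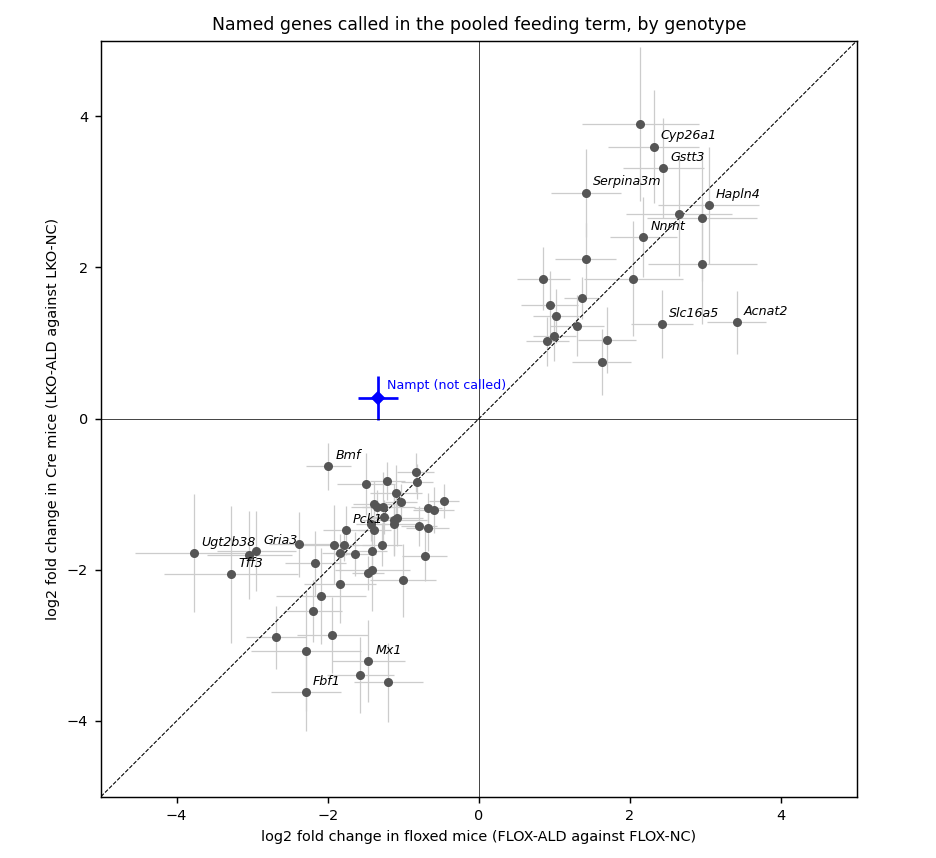
Feeding difference in floxed mice (x axis) against Cre mice (y axis), both log2 scale with bars of 1 SE, for 70 called named genes and Nampt. Cyp2b10 and Slc34a2 lie beyond the axes, which end at 5. All 70 lie in the quadrants of equal sign, and Nampt, in blue, does not.

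Feeding by genotype interaction was called for 1 gene in edgeR, 0.00526% of those tested, and 1781 genes passed 0.05 unadjusted. The gene was Fgf2, a fibroblast growth factor, which was not called for feeding. Fgf2 was at 0.152 and 0.0417 CPM in LKO-NC and at 2.73 to 7.89 CPM in every other library. Of the 633 pooled calls 40 had an unadjusted interaction p under 0.05 and 0 an adjusted one.

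How far the calls rested on single libraries is shown by the refits without each one. The count of 633 ran from 149 without LKO-NC replicate 2 to 1198 without FLOX-ALD replicate 3. It was 257, 234 and 272 without FLOX-NC replicates 1, 2 and 3, 339 without LKO-NC replicate 1, and 313 and 402 without LKO-ALD replicates 1 and 3. Of the 72 called genes named under the rule and its additions, all kept their sign in every refit and 34 kept their call in all 11. Without FLOX-ALD replicate 1, 66 of the 72 kept it, and the exceptions were Acot6, Lpgat1, Atf4, Serpina3m, C2 and Ppara. In DESeq2 more members were called of the lists of ribosomal proteins (8 higher), tubulin and cytoskeleton (7 higher), methionine metabolism (6 higher), NRF2 response (4 higher and 2 lower), complement and coagulation (7 lower), LXR targets (5 lower) and bile acids (2 higher and 4 lower). In the 8 libraries the tubulin, methionine, bile acid and gluconeogenesis lists had 4, 2, 2 and 4 calls, as with all 11.

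**Figure D5:**
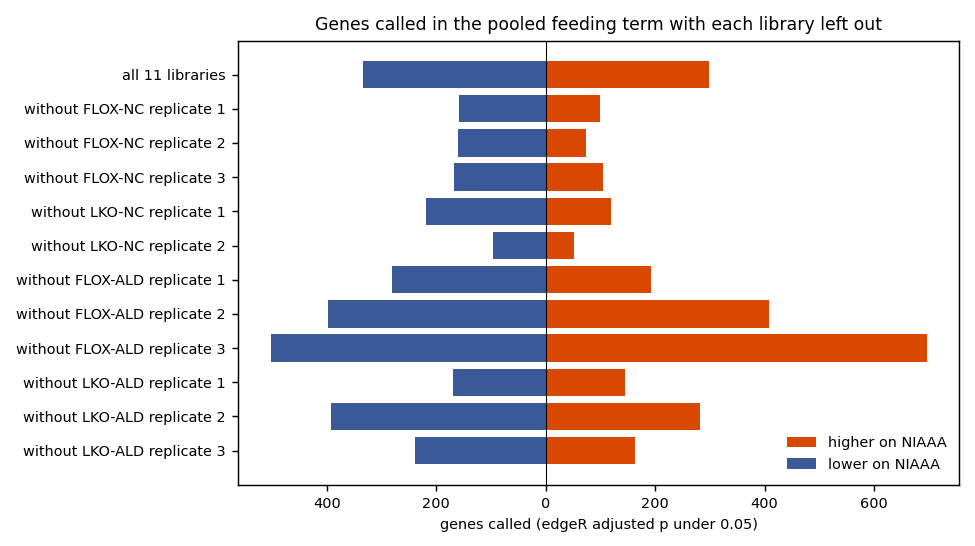
Genes called higher (orange, right) and lower (blue, left) on NIAAA feeding with all 11 libraries and with each library left out. The x axis counts genes from 0 in both directions. The fewest calls, 149, are without LKO-NC replicate 2, and the most, 1198, without FLOX-ALD replicate 3.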

How the data were processed

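RNA sequencing of 11 mouse liver samples was analysed. Per the labels' protocols, a KAPA stranded mRNA kit and a SMARTER library kit were used. The submitters' processing notes name build mm10 and, with no versions, FastQC, cutadapt, StringTie, HISAT2 and edgeR. The authors deposited estimated counts per gene, which were whole numbers and equalled the sum of each gene's transcripts, and FPKM values per gene. How reads were counted, and on which strand, is not given in the sources used here. Of 55401 genes, 22731 were 0 in all libraries.

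Genes were filtered by filterByExpr (minimum count 10, minimum total 15), leaving 19014, scaled by TMM and fitted with edgeR 4.0.16 (robust quasi-likelihood, genotype plus feeding, 8 residual and 5.69 prior degrees of freedom, common biological coefficient of variation 44.1%). An interaction fit had 7 residual degrees of freedom. P-values were adjusted by Benjamini-Hochberg over all genes tested. SE is the absolute log2 difference divided by the square root of F. Alternatives used DESeq2 1.42.0, limma 3.58.1 (voom, and log2(FPKM + 0.1)), other scalings, filters and designs, and each library left out, and the edgeR steps were tested on simulated data. R 4.3.3 and Python 3.11.15 were used.

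The comparison, its 55 gene lists (1154 entries tested) and the named genes were chosen with earlier results of these data known. Named were Lpcat3, Nampt, up to 8 higher and 8 lower called genes of largest difference without overlapping libraries, leaving out clone-like symbols and means under 1 on the log2 CPM scale, and up to 2 higher and 2 lower called members of each list. Other called list members, and the 10 genes of smallest p without clone-like symbols, were named after their values were seen. Promoter sequences are from RefSeq (GRCm38.p6). The test was planned for read counts of 12 libraries and was used unchanged on the estimated counts of 11. A gene of 1 list is not reported here.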

Additional observations from a re-analysis of the deposited data

Results flagged for a closer look

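For each named gene and for 2 library properties, the highest or lowest library of the 5 control and of the 6 NIAAA libraries was compared with its nearest neighbour, and 15 of 166 values stood apart by Dixon's criterion. Chance flags about 1 in 20 groups.

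LKO-NC replicate 1 accounted for several of them. Its mitochondrial share was 25.3%, against 12.1% to 15.4% in the other control libraries. Its Alb level, the albumin transcript, was 57820 CPM, against 88290 to 94620 CPM, and its Cat level was 1426 CPM, against 2442 to 2798 CPM. It was high for S100a9 at 20.31 CPM, for Cd74 at 88.91 CPM, for Mx1 at 6.605 CPM and for Kcna2 at 13.4 CPM, where the other control libraries reached 1.44, 46.3, 3.2 and 6.42 CPM. Without it the Cd74 call was lost (edgeR adjusted p up to 0.0671 over the refits), and those of Mx1 and Kcna2 held.

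LKO-ALD replicate 3 was high among NIAAA libraries for Ptges at 8.702 CPM, Cd74 at 35.84 CPM and Hgf at 11.57 CPM. FLOX-ALD replicate 1 was high for Cxcl9 at 9.788 CPM and Slc16a6 at 90.13 CPM. Among control libraries, FLOX-NC replicate 3 was the only one with counts of Slc34a2, at 0.1416 CPM, FLOX-NC replicate 2 was low for Ier2 at 15.7 CPM, and LKO-NC replicate 2 was high for Calcoco1 at 51.88 CPM.

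Fgf2 stood out because its feeding difference differed between the genotypes by 5.898 on the log2 scale (SE 0.707, edgeR adjusted p = 0.0351 for the interaction). The difference was −0.52 in floxed and 5.38 in Cre mice, and it rested on LKO-NC, whose 2 libraries were at 0.152 and 0.0417 CPM.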

How the results depend on the processing

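The count of 633 feeding calls became 1923 in DESeq2, 626 of them shared, and lay between 623 and 877 in the other fits of all 11 libraries by voom, FPKM, scaling, filter, averaging of genotypes, omission of genotype or a non-robust fit. Leaving out 1 library gave 149 to 1198. Without the 3 libraries above 20% mitochondrial counts there were 624 calls, 314 of them shared, and 43 of the 72 called named genes kept their call. On FPKM values 67 of the 72 did. The labels do not say whether title numbers pair the samples. Deviations from group means correlated at -0.0505 to 0.0778 between libraries of equal number. With 2 or 3 libraries per group such values cannot decide it. A replicate block by title number, which drops LKO-ALD replicate 2, gave 280 calls, 231 shared.

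The single interaction call became 78 in DESeq2, 60 without the libraries above 20%, 5 without a low-count filter, and 0 by voom, FPKM, upper-quartile scaling, a stricter filter, the block or a non-robust fit. Leaving out 1 library gave 0 to 8. Cyp2e1, at 0.07 in the reported fit and at most 0.29 without 1 library, changed sign to −0.27 without LKO-NC replicate 1, to −0.03 without FLOX-ALD replicate 2, to −0.02 without LKO-ALD replicate 1, and to −0.22 without the libraries above 20%. The cause was not tested. Across named genes 1646 values kept their side of the threshold, 282 fell below it and 11 rose past it.

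Genotype groups held 2 or 3 libraries, so the interaction has little precision, and genes of few counts, such as Acot6 and Slc34a2, rest on few reads. Without 1 LKO-NC library the other stands alone in its group and is assumed to vary like the rest.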

Other observations

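The 10 genes of smallest p, leaving out clone-like symbols and chosen after their values were seen, were lower on NIAAA feeding. Those not described above are given here. The smallest p was that of Hdc, histidine decarboxylase, the enzyme that makes histamine. Hdc measured 49.8, 57 and 49.6 CPM (FLOX-NC) and 54.4 and 59.9 CPM (LKO-NC) on control feeding, and 13.2, 17.9 and 14.5 CPM (FLOX-ALD) and 20.9, 15.4 and 17.4 CPM (LKO-ALD) on NIAAA feeding. Its control libraries spanned 49.6 to 59.9 CPM and its NIAAA libraries 13.2 to 20.9 CPM, and it fell by 1.73 (SE 0.139, edgeR adjusted p = 0.000147). The call held without any 1 library (edgeR adjusted p up to 0.00185). Hdc fell by 1.78 in floxed and 1.67 in Cre mice.

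Slc8b1, the sodium-calcium exchanger of the inner mitochondrial membrane, ran from 52 to 73.4 CPM on control feeding and 15 to 23.3 CPM on NIAAA feeding and fell by 1.73 (SE 0.169, edgeR adjusted p = 0.000417). Zfand4, a zinc finger gene, ran from 24.5 to 36.8 CPM on control feeding and 6.65 to 10.4 CPM on NIAAA feeding and fell by 1.81 (SE 0.167, edgeR adjusted p = 0.000319). Lmbr1l, a membrane protein that restrains WNT signalling in lymphocytes, ran from 30.1 to 34.8 CPM on control feeding and 8.95 to 13.5 CPM on NIAAA feeding and fell by 1.56 (SE 0.146, edgeR adjusted p = 0.000319). Fbxl20, an F-box protein of ubiquitin ligases, ran from 32.7 to 49.3 CPM on control feeding and 10.7 to 18 CPM on NIAAA feeding and fell by 1.41 (SE 0.149, edgeR adjusted p = 0.000675). Nat8f1, an N-acetyltransferase of the endoplasmic reticulum, ran from 72.8 to 166 CPM on control feeding and 24.2 to 54 CPM on NIAAA feeding and fell by 1.71 (SE 0.197, edgeR adjusted p = 0.00131), and it overlaps Tprkb on the opposite strand. All 5 had no overlap between feedings and kept their call without any 1 library. The remaining members of the 10 were H2-Q1, Lpcat3, Ighm and Foxo3.

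Several metabolic lists gave few or no calls. Of 24 tested cholesterol synthesis genes 0 were called in edgeR, 3 in DESeq2, and the median was −0.11. Hmgcs1, an early enzyme of that pathway, measured 159.9, 136 and 463 CPM (FLOX-NC) and 555 and 618 CPM (LKO-NC) on control feeding, and 436, 108 and 139 CPM (FLOX-ALD) and 101, 239.7 and 189.6 CPM (LKO-ALD) on NIAAA feeding, with FLOX-NC replicate 3 and both LKO-NC libraries above the other 2 FLOX-NC libraries. The 45 nuclear genes of oxidative phosphorylation had 0 calls in edgeR and 2 in DESeq2, with a median of −0.004, and the 13 mitochondrially encoded genes had 0 in both, with a median of 0.29. Apoa1, the HDL apolipoprotein, ran from 11032 to 14710.0 CPM on control feeding and 5757 to 10567 CPM on NIAAA feeding without overlap, and its difference of −0.84 missed the threshold (SE 0.226, edgeR adjusted p = 0.0596).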
